A study of Homo sapiens with 18 samples.

Results

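The response of control ARPE-19 cells to N-acetylcysteine ethyl ester (NACET) was described across all genes, in the 3 NACET-treated and the 3 untreated samples of control cells, which are 6 of the 18 samples of the series, 3 in each of 6 groups. ARPE-19 is a line of human retinal pigment epithelium (RPE) that arose in culture by itself. The control cells had been transduced with the lentiviral Cas9 vector without a guide RNA. They received 1 mM NACET, or Milli-Q water as the vehicle. Control cells given 0.2 mM H2O2 and NRF2 ΔC cells given NACET or vehicle served for comparison, and NRF2 ΔC is 1 clone whose *NFE2L2*, which encodes NRF2, was edited by CRISPR/Cas9 in its last exon. The series text names 1% serum but also gives 8 h of treatment after 40 h of culture with 10% serum. The study's article likewise gives 8 h of treatment, 40 h after seeding, and 10% serum. The sample protocols instead give 2 h after 22 h in 1% serum, and the source of this conflict was not settled here. The labels do not say whether replicates were separate cultures, so p-values measure the spread between these samples, which may be technical. The 6 samples held from 18523729 to 24083863 reads counted on genes. Levels are given as CPM, counts scaled to the TMM-adjusted library total, and are not corrected for gene length.

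NACET is an esterified form of N-acetylcysteine that crosses membranes readily and releases cysteine, the limiting amino acid of glutathione synthesis, inside the cell. NRF2 is a bZIP transcription factor that KEAP1 marks for degradation, and oxidation or alkylation of KEAP1 cysteines lets it accumulate. With small MAF proteins it binds the antioxidant response element (ARE) near genes for glutathione and thioredoxin metabolism, quinone reduction, heme breakdown and NADPH supply. The RPE is exposed to light and to lipid peroxides from photoreceptor outer segments, and it is a tissue in which this pathway is much studied.

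The RPE marker list had 30 members, of which 15 were under 1 CPM on average. *RPE65*, *TTR*, *CLDN19* and *RGR* together had 2 counts in the 6 samples, while *MITF* (145.3 CPM on average), *OTX2* (133.5 CPM), *PAX6* (144.0 CPM), *KRT8* (569 CPM) and *TJP1* (150.0 CPM) were well expressed. The cells thus held epithelial and RPE lineage transcripts without the visual cycle isomerase. Summed over the list, the level was 2496 to 2518 CPM in untreated and 2113 to 2222 CPM in NACET-treated samples, so the groups did not overlap, and the part of this in other results was not tested. In such bulk samples fewer cells of a type and less RNA per cell cannot be told apart. Among markers of photoreceptors, glia and neurons, and immune and endothelial cells, 12 of 15, 12 of 15 and 12 of 14 were under 1 CPM, and *CRX*, *AQP4* and *PTPRC* had no count. Their summed levels overlapped between the groups for photoreceptor markers (23.4 to 23.9 CPM untreated, 20.3 to 24.2 CPM with NACET), for glia and neurons (219 to 239 CPM and 194 to 219.8 CPM) and for immune and endothelial cells (103 to 148 CPM and 85.1 to 146 CPM).

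Of 13696 genes tested, 191 rose with NACET (1.39%) and 185 fell (1.35%), where a call needed a Benjamini-Hochberg adjusted p below 0.05 in edgeR's quasi-likelihood fit and a log2 change of 0.6 or more either way. The response was thus as wide downward as upward, and in each direction 78 genes had a log2 change of 1 or more. The upward side reached further, with a largest log2 fold change of 4.42 among genes above 1 CPM against -2.18 downward. All 376 called genes had NACET and untreated samples that did not overlap, which by itself held for 13.5% of tested genes upward and 13% downward. The median log2 fold change over all genes was -0.0057. NACET and untreated samples of equal number shared their deviations from the group means, and with that number as a block the calls became 500 up (3.65%) and 526 down (3.84%), among them all 376. The calls changed with every sample left out, in fits without the block, in which 1 pair was incomplete. There were 45 up and 32 down without NACET replicate 1, 22 and 9 without NACET replicate 2, and 179 and 158 without NACET replicate 3, of which 130 and 130 were among the calls with all samples. Without untreated replicate 1, 2 or 3 there were 34 and 24, 21 and 14, and 91 and 99. All 376 kept their direction in each of these 6 fits, and 19 of the genes that rose and 7 of those that fell stayed called in all of them. Those not described further on include *IGF2BP3*, an mRNA-binding protein (log2 1.40), *RFTN1*, a lipid raft protein (log2 1.13), *PPL*, periplakin of the cornified envelope (log2 -1.45), and *CTDSP1*, a phosphatase of RNA polymerase II (log2 -1.08), which were named after their values were seen.

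**Figure D1:**
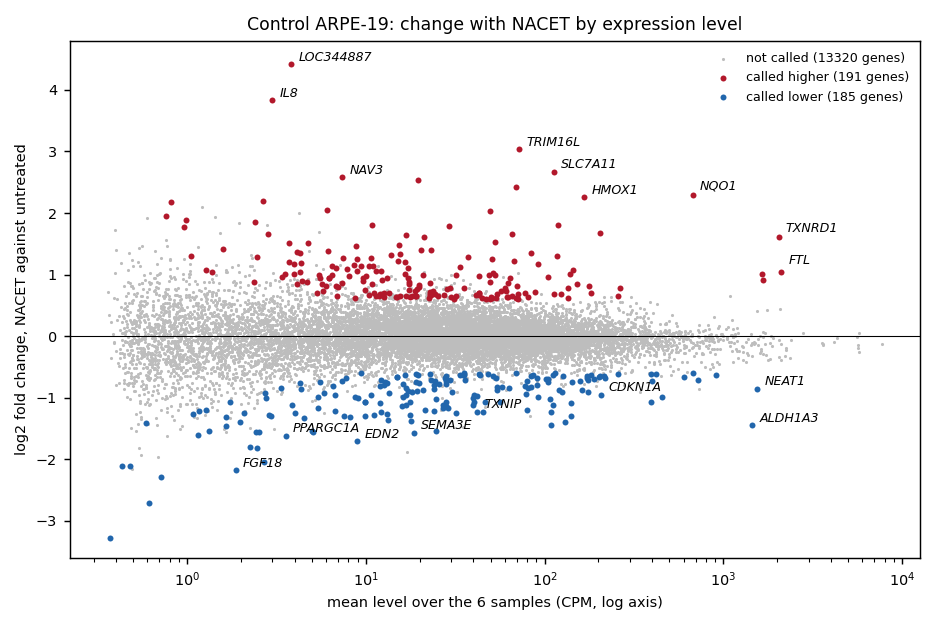
Each point is 1 of 13696 genes, placed by its mean level over the 6 samples (CPM, log axis) and its log2 fold change with NACET (vertical axis). Red points are the 191 genes called higher and blue points the 185 called lower. Genes called higher lie at all levels up to *FTL* and *TXNRD1*, and the abundant genes called lower include *ALDH1A3* and *NEAT1*.

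*NFE2L2* itself was measured at 121, 126 and 125 CPM in untreated and 106, 109 and 105 CPM in NACET-treated cells. The NACET samples were all below the untreated ones, with log2 ratios of -0.198, -0.207 and -0.257 in the 3 same-numbered pairs. Without the pairing, the log2 difference of -0.22 ± 0.08 (SE, n = 3 + 3) missed the threshold (edgeR adjusted p = 0.169). A difference of this size is also below the fold limit, so it could not be called at any p-value. The missed call thus does not show an unchanged level of *NFE2L2*. *KEAP1*, its repressor, stood at 78.3 ± 3.79 and 89.6 ± 11.1 CPM (SD, n = 3), with a log2 difference of 0.19 (edgeR adjusted p = 0.373). Among the 12 tested members of the list of NRF2, its repressor and its partners, 1 rose, and 2 with the block. This was *MAFG*, a small MAF partner of NRF2, which went from 64.2, 69.6 and 78.7 to 121, 142 and 149.7 CPM (log2 0.96 ± 0.12, edgeR adjusted p = 0.0117). *MAFG-AS1*, named here after its values were seen, rose beside it by 0.96. The counting ignored strand, so reads of this neighbouring gene pair may not be separable.

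The gene with the largest rise was *LOC344887*, the transcribed pseudogene now named *NMRAL2P*. It was at 0.222, 0.435 and 0.363 CPM in untreated samples and at 7.5, 6.97 and 7.51 CPM with NACET, a log2 fold change of 4.42 ± 0.24 (edgeR adjusted p = 0.000980). The 3 NACET samples lay close together and far above all untreated ones. *SLC7A11*, the cystine carrier of system xc-, went from 24.6, 36.6 and 30.8 to 190.2, 222 and 172 CPM. Its log2 fold change was 2.67 ± 0.17 (edgeR adjusted p = 0.00136). *NAV3*, a microtubule-binding protein of migrating cells, went from 2.4, 1.84 and 2.09 to 11, 12.6 and 14.4 CPM (log2 2.58 ± 0.17), and it stayed called whichever sample was left out, as did *LOC344887* and *SLC7A11*. *PIR*, an iron-containing nuclear protein, rose by 2.04 ± 0.21 from 2.38 ± 0.652 to 9.79 ± 0.982 CPM (SD, n = 3) and also stayed called in all 6 fits. Further large rises were seen for *AGPAT9* (now *GPAT3*), a glycerol phosphate acyltransferase of triglyceride synthesis (0.949 ± 0.36 to 4.37 ± 1.61 CPM, log2 2.20), for *MFSD2A*, a lysophospholipid carrier (1.04 ± 0.376 to 3.76 ± 0.643 CPM, log2 1.86), and for *ANGPTL4*, a secreted inhibitor of lipoprotein lipase (4.22, 7.44 and 2.77 to 17.3, 21.7 and 11.4 CPM, log2 1.80). In *ANGPTL4* the untreated samples varied by a larger factor than the NACET ones, and sample 2 was highest in both groups.

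**Figure D2:**
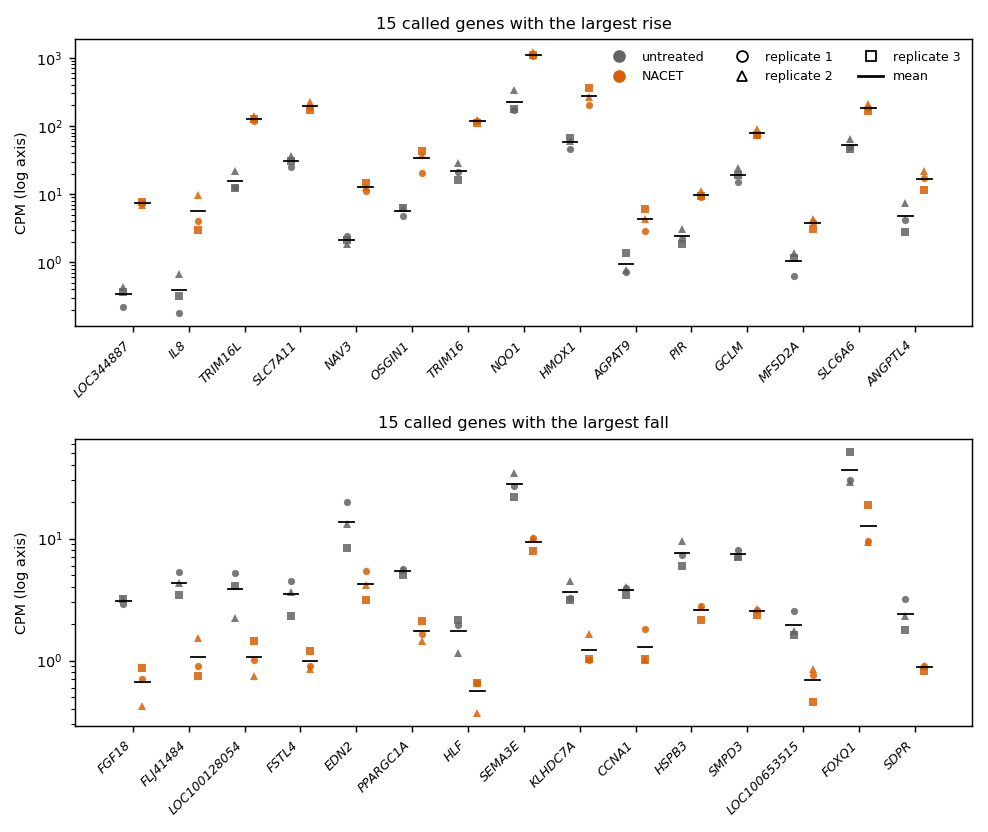
CPM (log axis) in each of the 3 untreated (grey) and 3 NACET-treated (orange) control samples, for 30 called genes above 1 CPM, the top 15 by rise (upper panel) and by fall (lower panel). Marker shapes give the replicate number and bars the group means. In all 30 genes the groups do not overlap, and *IL8* and *AGPAT9* show the widest spread among the NACET samples of the genes that rose.

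Cystine uptake and glutathione synthesis had 4 of 20 tested members up and none down, with a list median of 0.29 on the log2 scale, against the median over all genes given above. Besides *SLC7A11*, both subunits of the first enzyme of glutathione synthesis rose. The modifier subunit *GCLM* went from 15, 24.1 and 18.9 to 74.6, 89.9 and 73.3 CPM (log2 2.04 ± 0.18, edgeR adjusted p = 0.00373), and the catalytic subunit *GCLC* from 32.5, 35.9 and 29.9 to 55.2, 52.2 and 52.8 CPM (log2 0.71 ± 0.10, edgeR adjusted p = 0.0169). The modifier subunit thus had the larger fold change of the pair. *GSR*, glutathione reductase, rose by 1.07 from 93.4 ± 5.92 to 196 ± 21.7 CPM (SD, n = 3). With the replicate block 6 members rose, and DESeq2 also gave 6.

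In the thioredoxin and peroxiredoxin list 3 of 19 members rose and 1 fell, with a median of -0.014. *TXNRD1*, cytosolic thioredoxin reductase, was among the most abundant genes that rose, at 918, 1100.4 and 1005 CPM untreated and 3010.3, 3212 and 2986 CPM with NACET (log2 1.61 ± 0.12, edgeR adjusted p = 0.00195). *SRXN1*, sulfiredoxin, which repairs over-oxidized peroxiredoxins, went from 83.9, 102 and 108 to 275, 326 and 338 CPM (log2 1.68 ± 0.13). *TXN*, thioredoxin itself, rose by 0.84 ± 0.18 from 109 ± 20.5 to 195 ± 36.8 CPM (SD, n = 3). The member that fell was *TXNIP*, which binds and inhibits thioredoxin and lowers glucose uptake. It went from 61.7, 42.6 and 72.7 to 21.6, 21.3 and 32.5 CPM, so that the highest NACET sample was below the lowest untreated one (log2 -1.23 ± 0.23, edgeR adjusted p = 0.0338). *TXNRD1* and *SRXN1* stayed called in all 6 fits that left out a sample, and *TXN* and *TXNIP* did not.

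Quinone and carbonyl reductases were the list with the largest share of members up, 7 of 16 and none down, and a median of 0.60. *NQO1*, the 2-electron quinone reductase, stood at 169, 336 and 179 CPM untreated and 1058, 1202 and 1104 CPM with NACET (log2 2.30 ± 0.26, edgeR adjusted p = 0.00924). Untreated sample 2 stood well above the other untreated samples and still far below the NACET ones. *OSGIN1*, an oxidative stress-induced growth inhibitor, went from 4.79, 6.23 and 6.13 to 20.2, 36.9 and 42.7 CPM (log2 2.54). *AKR1C3*, an aldo-keto reductase of steroids and prostaglandins, went from 12.2, 11.2 and 7.95 to 32.4, 29.7 and 33.3 CPM (log2 1.61). *PTGR1*, prostaglandin reductase, rose by 1.34, *EPHX1*, microsomal epoxide hydrolase, by 0.82, *CBR1*, carbonyl reductase, by 0.72, and *NQO2* by 0.65. In the glutathione transferase list, by contrast, 1 of 16 members rose. This was *MGST1*, the membrane-bound transferase and peroxidase (195 ± 25.1 to 334 ± 30.3 CPM, SD, n = 3, log2 0.78). *GSTP1*, the most abundant of that list, stood at 483, 478 and 499 and 456, 494 and 576 CPM, where the groups overlapped.

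Heme breakdown and iron handling had 4 of 25 members up and none down, with a median of 0.20. *HMOX1*, heme oxygenase, went from 46.2, 60.7 and 66 to 200.3, 266 and 358 CPM, with NACET sample 3 the highest (log2 2.25 ± 0.23, edgeR adjusted p = 0.00555). *FTL*, the ferritin light chain that stores the iron set free, went from 1345, 1466 and 1309.6 to 2637, 2753 and 3132 CPM (log2 1.05 ± 0.12). *SLC48A1*, the heme carrier of lysosomes, rose by 1.26 and *FECH*, which inserts iron into protoporphyrin, by 0.73. Of the NADPH and pentose phosphate list, *ME1*, cytosolic malic enzyme, rose from 29.95, 39.4 and 33 to 70.8, 68.7 and 68.2 CPM (log2 1.02), together with the mitochondrial folate enzyme *MTHFD2*. Of 9 export pumps 2 rose, *ABCC3*, which exports conjugates (15, 12.6 and 11.6 to 44.8, 45.9 and 45 CPM, log2 1.79), and *ABCB6*, a porphyrin carrier (log2 0.74).

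The p62 and selective autophagy list had 3 of 28 members up but a median of -0.10, so these rises were not shared by the list. *SQSTM1*, the autophagy receptor p62 that also binds KEAP1, went from 1098, 1156 and 1232 to 1956, 2224 and 2406 CPM (log2 0.92 ± 0.12). *TRIM16*, a ubiquitin ligase of stress granules and damaged endomembranes, went from 21.2, 28.5 and 16.1 to 120.01, 123 and 109 CPM (log2 2.42), and its near copy *TRIM16L* from 12.9, 21.8 and 12.2 to 119, 139 and 125 CPM (log2 3.04 ± 0.22). These are near-identical copies and the division of reads between them is uncertain.

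Promoter windows of 300 bases, each ending 50 bases after the gene start, were read from the RefSeq table of the build GRCh38.p14, which held 10635 of the 13696 tested genes. The ARE core was searched as TGACNNNGC on both strands. It was present in 29 of 145 windows of genes that rose (20%), in 18 of 143 of genes that fell (12.6%) and in 1605 of all 10635 (15.1%). Of the genes described so far, 4 with a match are shown because they cover glutathione synthesis, thioredoxin reduction, NADPH supply and *PIR*. The windows are chr1:93909381-93909680 for *GCLM* (minus strand), chr12:104215529-104215828 for *TXNRD1* (plus strand), chr6:83431002-83431301 for *ME1* (minus strand) and chrX:15493284-15493583 for *PIR* (minus strand). Capitals mark the ARE core on either strand.
GCLM: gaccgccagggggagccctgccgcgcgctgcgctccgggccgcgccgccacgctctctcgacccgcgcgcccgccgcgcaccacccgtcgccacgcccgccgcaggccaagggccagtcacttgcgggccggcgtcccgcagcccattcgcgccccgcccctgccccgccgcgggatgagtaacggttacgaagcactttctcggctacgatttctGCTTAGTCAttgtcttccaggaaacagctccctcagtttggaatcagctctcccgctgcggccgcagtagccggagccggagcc
TXNRD1: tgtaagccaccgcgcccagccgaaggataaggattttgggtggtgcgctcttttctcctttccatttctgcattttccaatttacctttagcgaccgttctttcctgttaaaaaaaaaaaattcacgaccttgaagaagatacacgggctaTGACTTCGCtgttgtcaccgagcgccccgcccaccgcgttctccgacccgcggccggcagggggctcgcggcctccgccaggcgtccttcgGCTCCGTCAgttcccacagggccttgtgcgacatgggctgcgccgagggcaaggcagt
ME1: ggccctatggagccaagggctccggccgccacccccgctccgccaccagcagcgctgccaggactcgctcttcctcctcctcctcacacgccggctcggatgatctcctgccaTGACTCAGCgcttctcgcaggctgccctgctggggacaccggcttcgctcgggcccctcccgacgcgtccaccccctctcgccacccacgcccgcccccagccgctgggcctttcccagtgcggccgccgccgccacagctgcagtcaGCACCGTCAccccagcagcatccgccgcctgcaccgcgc
PIR: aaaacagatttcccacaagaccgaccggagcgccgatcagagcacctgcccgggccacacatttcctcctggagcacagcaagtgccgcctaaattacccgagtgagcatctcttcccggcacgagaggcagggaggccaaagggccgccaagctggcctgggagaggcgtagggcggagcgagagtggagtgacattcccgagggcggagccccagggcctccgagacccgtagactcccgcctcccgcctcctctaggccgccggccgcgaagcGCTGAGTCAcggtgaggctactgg
Counted from the gene start, the match of *GCLM* begins at base -34, those of *TXNRD1* at -99 and -8, those of *ME1* at -137 and 12 and that of *PIR* at 27. *NQO1*, *SRXN1*, *FTL* and *SQSTM1* had no match in this window, which says nothing of sequences further away. A match of these letters is a description and not a binding site.

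In the list of the integrated stress response 2 of 21 members rose, with a median of 0.11 and 8 negative values. In all 3 same-numbered pairs 9 of its members (42.9%) were higher and 7 (33.3%) lower, against 30.4% and 31.5% of all genes. In amino acid import and synthesis 3 of 23 rose, with a median of 0.35. *ATF4*, the transcription factor translated when eIF2α is phosphorylated, went from 185, 187 and 233 to 281, 309.5 and 356 CPM (log2 0.65 ± 0.13, edgeR adjusted p = 0.0434). Its target *TRIB3*, a pseudokinase, went from 17, 16.7 and 19.2 to 23.4, 33.6 and 28.1 CPM (log2 0.68). Besides *SLC7A11*, the taurine carrier *SLC6A6* rose strongly, from 48.7, 65 and 45.3 to 185, 209 and 163 CPM (log2 1.81 ± 0.16), and the glutamine carrier *SLC1A5* by 0.64. *CTH*, the last enzyme of cysteine synthesis by transsulfuration, went from 3.46, 4.2 and 3.32 to 5.69, 8.94 and 7.18 CPM (log2 0.99), and *MTHFD2* from 44.2 ± 8.63 to 84.5 ± 14.7 CPM (SD, n = 3, log2 0.94). Of 23 cytosolic aminoacyl-tRNA synthetases 1 rose, *GARS* (117, 156 and 143 to 202, 245 and 233 CPM, log2 0.71), although 20 of the 23 had positive values and the list median was 0.23. With the block 6 members rose in amino acid import and synthesis, 4 in the integrated stress response and 5 in serine, glycine and one-carbon enzymes, where 2 had risen without it. *SLC6A6* stayed called in all 6 fits that left out a sample, *ATF4* and *MTHFD2* in 1, and *TRIB3*, *SLC1A5*, *CTH* and *GARS* in 0.

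Inflammatory and NF-κB genes had 4 of 18 tested members up, none down and a median of 0.57. *IL8* (now *CXCL8*), the neutrophil chemokine, was barely detected in untreated cells at 0.177, 0.677 and 0.318 CPM and stood at 4.08, 9.79 and 2.93 CPM with NACET (log2 3.83 ± 0.61, edgeR adjusted p = 0.0209). All 3 NACET samples were above the untreated ones, but they differed among themselves by more than those of other genes with large rises, with sample 2 highest. *PTX3*, a secreted pentraxin, went from 32.2, 17.9 and 45.3 to 101, 81.3 and 119 CPM (log2 1.66). *RELB*, an NF-κB subunit, rose by 1.05 and *TNFAIP3*, the ubiquitin-editing inhibitor A20, by 0.85. *NFKBIE*, an IκB inhibitor, *CD83* and *MIR155HG*, the host gene of miR-155, were not on the list and were named after their values were seen, with rises of 0.65, 1.0 and 1.20. With the block, 8 list members rose and 2 fell. Of the immune cell markers, *PTPRC* had no count, but *CD68* averaged 111.7 CPM over the 6 samples.

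AP-1 and immediate early genes had 4 of 30 members up and 1 down, with a median of 0.06. The member that fell was *BTG2*, which is also a p53 target. *FOSL1*, an AP-1 subunit of the FOS family, went from 41.2, 54 and 74.5 to 106, 137 and 141 CPM (log2 1.18 ± 0.21), and *JUNB*, of the JUN family, from 13.9, 16.7 and 13.9 to 21.4, 26.9 and 21.5 CPM (log2 0.65). *IER2* rose by 0.61 and *KLF2*, a Krüppel-like factor, by 0.81. With the block 8 members rose. Named after their values were seen, the feedback inhibitors of receptor tyrosine kinases *SPRY4* and *ERRFI1* rose by 1.04 and 0.94, and the ETS factor *ETV5* by 0.87, while its relative *ETV4* was at 2.31, 2.8 and 4.32 and 3.37, 4.84 and 7.6 CPM and missed the threshold (edgeR adjusted p = 0.258). The AP-1 site TGAGTCA was present in 13 of 145 windows of genes that rose (8.97%), in 7 of 143 of genes that fell (4.9%) and in 3.06% of all windows. In 50 of all 10635 windows it overlapped an ARE core, among them those of *ME1* and *PIR* shown above. The shares of the 2 motifs are thus not separate. The window of *IL8*, chr4:73740319-73740618 on the plus strand of GRCh38.p14, is shown for the gene with the second largest rise, with the AP-1 site in capitals.
IL8: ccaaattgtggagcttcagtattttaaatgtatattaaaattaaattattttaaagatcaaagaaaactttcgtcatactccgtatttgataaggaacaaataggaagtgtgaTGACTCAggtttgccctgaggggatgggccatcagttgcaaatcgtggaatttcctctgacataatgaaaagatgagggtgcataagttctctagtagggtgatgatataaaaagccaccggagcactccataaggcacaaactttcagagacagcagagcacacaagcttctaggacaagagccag
The site begins at base -137 from the gene start. The cAMP response element TGACGTCA was found in 2.07% of windows of genes that rose, 3.5% of those that fell and 3.26% of all. The C/EBP-ATF response element, searched as TGATGNAA and TGCATCA, was found in 1 and 0 windows of genes that rose, 1 and 0 of those that fell, and 1.64% and 1.23% of all.

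Other genes that rose were named after their values were seen. The volume-regulated anion channel subunits *LRRC8B* and *LRRC8C* went from 8.25, 9.86 and 7.41 to 18.1, 17.2 and 12.9 CPM and from 6.3, 8.26 and 9.04 to 20.1, 20.9 and 18.1 CPM (log2 0.92 and 1.32). The subunits *LRRC8A*, *LRRC8D* and *LRRC8E* had log2 differences of -0.11, 0.37 and 0.06 and missed the threshold. *LRP8*, a receptor for apolipoprotein E and selenoprotein P, rose from 27 ± 4.18 to 78.1 ± 11.2 CPM (SD, n = 3, log2 1.53) and stayed called in all 6 fits that left out a sample. *SPHK1*, which makes sphingosine 1-phosphate, rose by 1.30, and *XPOT*, the nuclear export factor of tRNA, by 0.69.

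Of the 185 genes that fell, 24 were on any of the 44 lists. So were 52 of the 191 that rose and 975 of all 13696 tested. The lists were chosen with earlier results of these data known, so these counts depend on that choice. The largest falls above 1 CPM included several secreted factors. *FGF18*, a fibroblast growth factor, went from 2.88, 3.19 and 3.18 to 0.705, 0.426 and 0.867 CPM (log2 -2.18 ± 0.27, edgeR adjusted p = 0.0115), and *EDN2*, endothelin 2, from 19.8, 13.1 and 8.31 to 5.39, 4.15 and 3.14 CPM (log2 -1.71 ± 0.33). In *EDN2* the untreated samples differed by more than 2-fold and all lay above the NACET ones. *SEMA3E*, a secreted semaphorin that guides vessels and axons, went from 27.1, 34.5 and 22 to 10.1, 10.2 and 7.89 CPM (log2 -1.57), and *FSTL4*, of the follistatin-like family, from 4.53, 3.62 and 2.32 to 0.906, 0.851 and 1.2 CPM (log2 -1.81). *PPARGC1A*, the coactivator that raises mitochondrial gene expression, went from 5.64, 5.56 and 5 to 1.66, 1.44 and 2.11 CPM (log2 -1.62 ± 0.19, edgeR adjusted p = 0.0104). *SMPD3*, neutral sphingomyelinase 2, went from 7.99, 7.25 and 7 to 2.62, 2.66 and 2.35 CPM and stayed called in all 6 fits that left out a sample (log2 -1.54 ± 0.15). Further falls were those of *FOXQ1*, a forkhead factor (log2 -1.53), *HSPB3*, a small heat shock protein (-1.56), *CCNA1*, cyclin A1 (-1.56), *KLHDC7A* (-1.56), *SDPR*, now *CAVIN2*, of the caveolar coat (-1.47), and *LOC100653515*, now *CEP295NL* (-1.54). The RNA genes *FLJ41484* and *LOC100128054* (now *PLCE1-AS1*) fell too (log2 -2.05 and -1.82), and counting without strand does not separate an antisense RNA from its partner gene.

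Among abundant genes, *ALDH1A3*, which makes retinoic acid from retinal, went from 2117, 1777 and 2478 to 748, 644 and 942 CPM (log2 -1.45 ± 0.18, edgeR adjusted p = 0.0127). All NACET samples lay far below all untreated ones. *NEAT1*, the long noncoding RNA that builds paraspeckles, went from 1708, 1864 and 2405 to 1024, 1126 and 1141 CPM (log2 -0.86), and *DIO2*, which activates thyroid hormone, from 945, 858 and 906 to 601, 500.4 and 543 CPM (log2 -0.72). Others were *ABL2*, a tyrosine kinase of the actin cytoskeleton (log2 -0.99), *NUMA1*, the mitotic spindle pole protein (-0.66), *PLXNB2*, a semaphorin receptor (-0.63), *AMOTL2*, an angiomotin that holds YAP (-0.61), and *REC8*, a meiotic cohesin subunit (-0.60).

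Of 26 tested p53 targets 6 fell and none rose, and the list median was -0.33, with 23 of 26 values negative. Of the 26, 15 lay below the untreated samples in all 3 NACET samples, against the 13% of all genes. *CDKN1A*, the cyclin-dependent kinase inhibitor p21, went from 311, 243 and 267 to 157, 133 and 136 CPM (log2 -0.95 ± 0.12, edgeR adjusted p = 0.0133). *BTG2*, an antiproliferative cofactor of mRNA deadenylation, went from 46.9, 55.6 and 57.1 to 23.3, 24.9 and 31.4 CPM (log2 -1.0), and *BBC3*, the BH3-only death protein PUMA, from 22.5, 19.96 and 24.4 to 10.9, 10.1 and 13.5 CPM (log2 -0.95). *DDB2*, which recognizes ultraviolet damage, *FDXR*, ferredoxin reductase, and *TP53INP1*, an antiproliferative stress protein, fell as well (log2 -0.86, -0.83 and -0.98). The same 6 genes were the list's calls with the block and with DESeq2. In the BCL2 family *BMF*, another BH3-only protein, fell beside *BBC3*, from 20.1, 19.4 and 18.1 to 8.36, 5.64 and 8.42 CPM (log2 -1.36 ± 0.17), whereas *PMAIP1*, the BH3-only protein NOXA, rose from 2.31, 3.19 and 2.95 to 5.64, 5.8 and 5.9 CPM (log2 1.04). Further genes that restrain growth were picked from those that fell, after their values were seen, so they show no common direction of such genes. They were *CDKN1B*, the inhibitor p27, from 130.1 ± 13.5 to 79.98 ± 8.67 CPM (SD, n = 3, log2 -0.70), *TOB1*, a relative of *BTG2* (log2 -0.71), *HBP1*, a repressor of cell cycle genes (log2 -0.69), *PDCD4*, an inhibitor of translation initiation (log2 -0.65), and *MNT*, a MAX-binding repressor (log2 -0.64). *OSGIN1*, *SPRY4* and *ERRFI1*, inhibitors of growth or of receptor tyrosine kinases given above, rose.

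Most DNA replication and S phase genes stood higher with NACET within each same-numbered pair, although without the pairing 1 of 42 rose. This was *ORC1*, the largest subunit of the origin recognition complex, at 6.17, 9.96 and 11.3 CPM untreated and 16.8, 23.6 and 23.4 CPM with NACET (log2 1.22 ± 0.23, edgeR adjusted p = 0.0353). With the replicate block 17 members rose and none fell, and DESeq2 without the block gave 11. The list median was 0.52 and 39 of 42 values were positive, against 49.0% of all genes. In the 3 pairs of equal number the medians were 0.68, 0.53 and 0.39, and 38 of 42 genes (90.5%) were higher with NACET in all 3 pairs, against 30.4% of all genes upward and 31.5% downward. *MCM4*, of the replicative helicase, shows the spread behind this, at 166, 277 and 277 CPM untreated and 301, 437 and 377 CPM with NACET. Sample 1 was the lowest of its group in both groups, and all NACET samples still lay above all untreated ones. *MCM3*, of the same helicase, stood at 122, 188 and 202 and 191, 272 and 283 CPM, where the groups overlapped. *CDC6*, which loads the helicase, had a log2 difference of 1.02 (edgeR adjusted p = 0.0760) and *E2F1*, a transcription factor of these genes, of 0.84 (edgeR adjusted p = 0.0999), and both passed with the block and with DESeq2.

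The homologous recombination and Fanconi anaemia list had 2 of 31 members up, *XRCC2*, a factor of strand exchange (6.08, 8.17 and 7.91 to 15.8, 18.5 and 11.8 CPM, log2 1.06), and *RBBP8*, the end resection factor CtIP (45.7, 59.9 and 57.9 to 73.9, 93.1 and 84.9 CPM, log2 0.62). With the block 6 rose, and the median was 0.26. Named after their values were seen, the replication ubiquitin ligase subunit *DTL*, the uracil glycosylase *UNG* and the dissolvasome subunit *RMI1* rose by 0.99, 0.62 and 0.65. The mitosis and spindle list differed from these, with 0 of 38 members called by edgeR with or without the block and by DESeq2, none at an unadjusted p under 0.05, and a median of 0.060. Its medians in pairs 1, 2 and 3 were 0.24, 0.011 and -0.051, so the pairs did not share a direction. *MKI67* stood at 229, 370.1 and 274 and 226, 335 and 228 CPM.

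Ribosome biogenesis and nucleolus genes had smaller values that were nearly all positive. Of 45 members 2 rose, *DKC1*, the pseudouridine synthase dyskerin (86.2, 114 and 118 to 151, 169 and 169 CPM, log2 0.62), and *RRS1* (31.8, 40.6 and 39.1 to 54, 60.7 and 54.9 CPM, log2 0.60). The median was 0.29, 44 of 45 values were positive and 26 of 45 genes had all NACET samples above all untreated ones, against 13.5% of all genes. The fold limit of 0.6 was above most of these values, and 24 members had an unadjusted p under 0.05, all of them higher with NACET, whereas 10.6% of all genes tested were higher at such a p. The 77 cytosolic ribosomal protein genes had no call and a median of 0.0096.

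**Figure D3:**
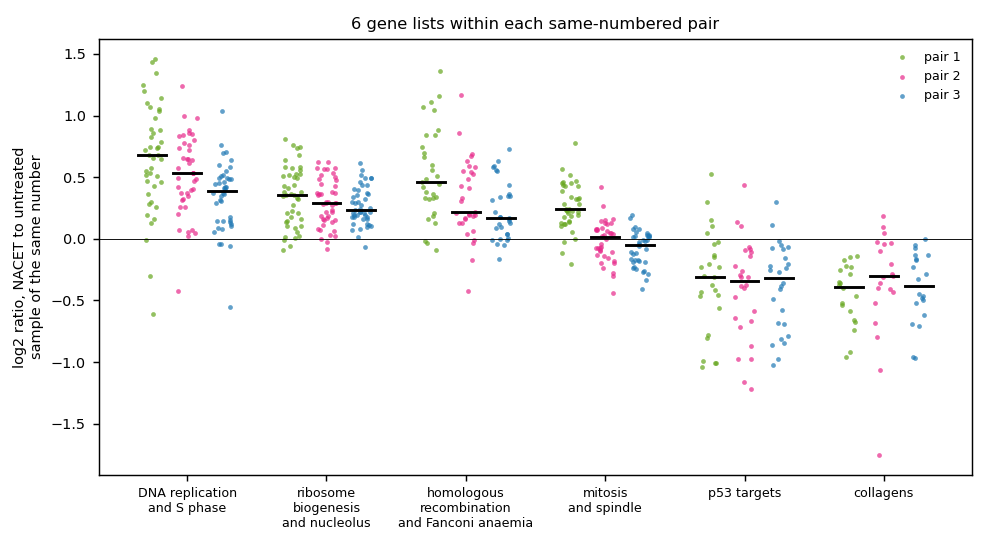
Log2 ratio of each NACET sample to the untreated sample of the same number (vertical axis), for the tested members of 6 gene lists, with pairs 1, 2 and 3 in green, pink and blue and bars at the medians. The replication medians lie at 0.68, 0.53 and 0.39, those of p53 targets at -0.31, -0.34 and -0.31 and those of collagens at -0.39, -0.31 and -0.38. Those of mitosis and spindle genes lie at 0.24, 0.011 and -0.051.

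The promoters of replication genes were examined after their values were seen. The E2F motif was searched loosely as TTTNNCGC, where N is any base. It was present in 23 of 36 windows of the list (63.9%) and in 10.5% of all windows. Among genes that rose it was in 9.66% of windows, and among those that fell in 5.59%. The E-box CACGTG was present in 14 of 36 windows of ribosome biogenesis genes (38.9%), in 10.1% of all windows, in 10.3% of genes that rose and in 11.2% of genes that fell. The windows of *CDC6* (chr17:40287629-40287928, plus strand) and *E2F1* (chr20:33686336-33686635, minus strand) of GRCh38.p14 are shown because they hold this motif, in capitals, near the start of genes that passed with the block.
CDC6: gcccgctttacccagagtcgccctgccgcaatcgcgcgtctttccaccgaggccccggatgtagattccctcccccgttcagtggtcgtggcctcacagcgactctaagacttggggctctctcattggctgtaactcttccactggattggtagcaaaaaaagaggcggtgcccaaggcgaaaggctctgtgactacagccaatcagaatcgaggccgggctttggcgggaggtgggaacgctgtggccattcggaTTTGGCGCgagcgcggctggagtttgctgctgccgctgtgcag
E2F1: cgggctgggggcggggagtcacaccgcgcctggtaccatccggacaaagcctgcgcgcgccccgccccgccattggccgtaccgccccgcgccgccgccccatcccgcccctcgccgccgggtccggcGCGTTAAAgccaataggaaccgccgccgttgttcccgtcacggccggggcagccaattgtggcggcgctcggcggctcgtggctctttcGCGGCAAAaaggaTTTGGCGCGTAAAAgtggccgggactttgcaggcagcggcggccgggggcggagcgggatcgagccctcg
The match of *CDC6* begins at base 8 and those of *E2F1* at -122, -33, -20 and -14, where the matches at -20 and -14 overlap.

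Clock and PAR bZIP genes had 5 of 18 members down and 1 up, with a median of -0.29. All PAR bZIP factors of the list were among the falls. *DBP* went from 15.1, 9.71 and 17.5 to 4.58, 4.74 and 7.72 CPM (log2 -1.30), *TEF* from 12.6, 15.6 and 14 to 7.55, 7.08 and 7.18 CPM (log2 -0.95 ± 0.13) and *HLF* from 1.95, 1.16 and 2.14 to 0.654, 0.373 and 0.661 CPM (log2 -1.61). Of the clock repressors, *PER3* fell from 20.5, 21.4 and 19.5 to 13.2, 12.1 and 10.7 CPM and *CRY2* from 16.7, 13 and 16.1 to 8.51, 7.82 and 9.78 CPM, whereas *CRY1* rose from 53.2, 60.1 and 50.1 to 99.7, 94.4 and 69.6 CPM (log2 -0.77, -0.81 and 0.69).

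Collagens had 2 of 20 members down, but all 20 log2 values were negative, with a median of -0.34. *COL9A2* went from 7.41, 6.77 and 7.54 to 3.88, 3.19 and 3.84 CPM (log2 -0.99 ± 0.15) and *COL16A1* from 5.95, 5.51 and 4.77 to 3.02, 3.14 and 3.34 CPM (log2 -0.77). *COL9A2* stayed called in 1 of the 6 fits that left out a sample and *COL16A1* in 0. Without the pairing, 4 of the 20 (20%) lay below the untreated samples in all 3 NACET samples, against 13% of all genes. An unadjusted p under 0.05 held for 3 of the 20, and for 20.8% of all genes. With the block 5 fell, and 17 of 20 were lower in all 3 same-numbered pairs, against 31.5% of all genes. *TIMP3*, an inhibitor of matrix proteases deposited by the RPE in its basement membrane, fell from 645, 489 and 475 to 305, 238 and 222 CPM (log2 -1.07) and was named after its values were seen. Of the 34 YAP and TGF-β responsive genes 1 rose (3 with the block) and 2 fell, *AMOTL2*, given above, and *AJUBA*, a LIM protein of cell junctions (269.7 ± 14.9 to 168 ± 8.67 CPM, SD, n = 3, log2 -0.68).

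In the RPE list 1 of 18 tested members fell, *TRPM1*, the cation channel of melanocytes and bipolar cells, at 0.71, 0.773 and 0.863 CPM untreated and 0.101, 0.319 and 0.124 CPM with NACET (log2 -2.12 ± 0.43), a level near the detection limit. With the block 3 fell. The list median was -0.15, and 5 of the 18 values were positive. Genes of pigment cells and of the epithelium outside the list were picked from those that fell, after their values were seen, and do not stand for all such genes. *MYO7A*, the myosin that moves melanosomes and phagosomes in the RPE, went from 252, 216 and 164 to 128, 124 and 93 CPM (log2 -0.87). *TSPAN10*, a tetraspanin of pigment cells, went from 215, 208 and 261 to 95.3, 114 and 153 CPM (log2 -0.92) and *SLC45A2*, a melanosome carrier, from 12.2, 11.4 and 10.6 to 7, 7.4 and 8.01 CPM (log2 -0.61). *CRB2*, of the apical polarity complex, went from 239, 177 and 185 to 86.1, 78.5 and 80.1 CPM (log2 -1.30 ± 0.13) and stayed called in all 6 fits that left out a sample. *PDE6G*, on the photoreceptor list, fell from 1.63 ± 0.324 to 0.695 ± 0.0529 CPM (SD, n = 3), and with the block 2 of the 4 tested members of that list fell.

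Members of developmental signalling pathways that fell were also named after their values were seen. In BMP signalling these were the ligand *BMP4* (log2 -0.96), the extracellular modulators *BMPER* and *KCP* (log2 -0.73 and -1.14) and the inhibitory *SMAD6* (log2 -0.62). In Wnt signalling they were the receptor *FZD1* and the inhibitor *APCDD1* (log2 -1.12 and -1.28), and among guidance molecules *SEMA4A*, *UNC5B* and *EPHA4* (log2 -1.38, -1.22 and -1.23). In the interferon list *STAT2* and *IRF9*, subunits of the factor ISGF3, fell from 179, 125 and 163 to 95.1, 71.4 and 86.6 CPM and from 76.8, 64.6 and 68.8 to 41, 34.1 and 39.4 CPM (log2 -0.88 and -0.88), 2 of 21 members, with a median of -0.087.

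Genes of fuel use moved in both directions. *ACACB*, the acetyl-CoA carboxylase that restrains mitochondrial fatty acid oxidation, fell from 27.3, 18.9 and 18.1 to 12.4, 11 and 8.92 CPM (log2 -1.0), and *ELOVL6*, an elongase of fatty acid synthesis, rose from 42.9, 58.4 and 51.4 to 79.3, 85.1 and 76.5 CPM (log2 0.66). Named after their values were seen, *PDK2*, which inhibits pyruvate dehydrogenase, *LIPE*, hormone-sensitive lipase, the fatty acid carrier *SLC27A1* and *BCKDHA*, of branched-chain amino acid breakdown, fell (log2 -0.83, -1.09, -0.71 and -0.61). While *PPARGC1A* fell, its relative *PPARGC1B* rose from 2.53, 2.85 and 1.86 to 6.24, 6.33 and 3.88 CPM (log2 1.18 ± 0.26) and *PPARG*, the nuclear receptor of adipocytes, from 10.3, 15.4 and 13.7 to 20.4, 21.3 and 24.2 CPM (log2 0.74). The 51 nuclear-encoded genes of the respiratory chain had no call and a median of -0.038.

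Of the lists with tested members, 12 had no call by edgeR. Their 334 different genes included 31 with an unadjusted p under 0.05 (9.28%, against 20.8% of all genes tested), 2 called by DESeq2 and 8 called with the block, and the list medians ranged from -0.49 to 0.11. Beside mitosis, ribosomal proteins and the respiratory chain they were glucose uptake and glycolysis, chaperones of the endoplasmic reticulum, metallothioneins, cholesterol synthesis, the proteasome, complement, mesenchymal genes, and markers of glia and of immune cells. *GAPDH*, of glycolysis, was at 5520.2, 5973 and 5393 and 5183, 6107 and 6247 CPM, *HSP90B1*, of the endoplasmic reticulum, at 1569, 1980.3 and 1537 and 1778, 1851 and 1614 CPM and *PSMD2*, of the proteasome, at 425, 531 and 557 and 526, 591 and 638 CPM, and in each the groups overlapped. Of 28 cytosolic heat shock proteins 1 rose, *HSPA1A* (log2 0.63), whose reads cannot be fully told from those of its near copy *HSPA1B*, while 24 values were positive and the median was 0.20. Of 29 hypoxia-inducible genes 1 rose, *ANGPTL4*, and the median was -0.038. With the block 3 rose.

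**Figure D4:**
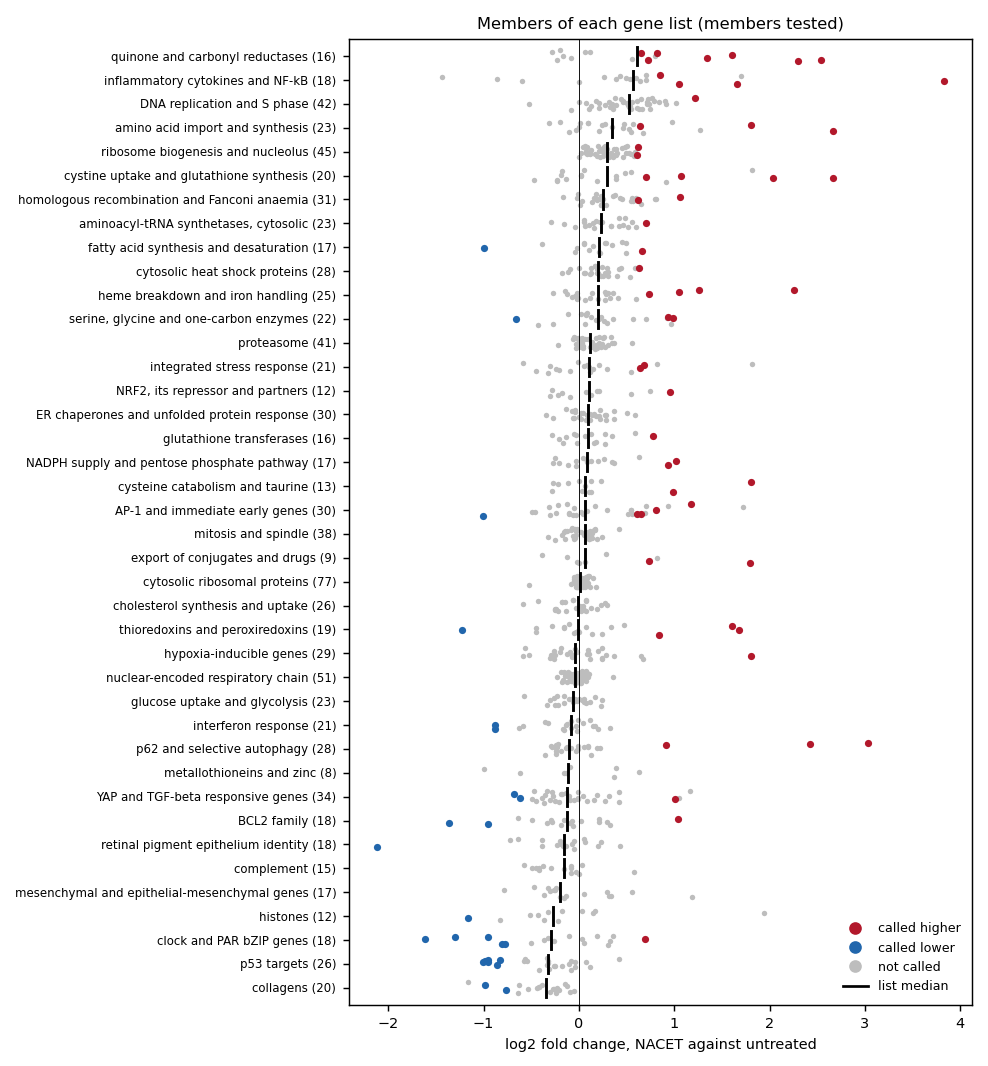
Log2 fold change with NACET (horizontal axis) of the tested members of each list with at least 5 of them, sorted by list median (black bars). Red and blue points are genes called higher and lower. The highest medians belong to quinone and carbonyl reductases (0.60) and inflammatory genes (0.57), and the lowest to collagens (-0.34) and p53 targets (-0.33).

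NACET and H2O2 were compared directly in control cells, at 1 mM and 0.2 mM, which asks how far the response to a thiol differs from that to an oxidant. Of 13581 genes tested, 305 were higher under NACET (2.25%) and 194 lower (1.43%) by the same limits (edgeR), and with the block 660 and 359 were. Without 1 of the 6 samples there were 91 to 387 higher and 68 to 201 lower. The folds given below for each treatment share the untreated samples. Several NRF2 targets rose with both agents. *SLC7A11* stood at log2 2.67 with NACET and 2.62 with H2O2, and the difference of 0.06 was not called (edgeR adjusted p = 0.886). *HMOX1* had 2.25 and 2.80 (difference -0.53, edgeR adjusted p = 0.289) and *GCLM* 2.04 and 1.58 (difference 0.47, edgeR adjusted p = 0.231). A missed threshold does not show equal responses, and *TRIM16* and *AKR1C3* were higher under NACET (differences 0.97 ± 0.21 and 1.14 ± 0.12, edgeR adjusted p = 0.0391 and 0.00383). The p53 targets had the largest share of members that differed of the lists with 5 or more tested, with 21 of 26 lower under NACET than under H2O2 and none higher. *CDKN1A* had -0.95 with NACET and 1.69 with H2O2 (difference -2.62 ± 0.10, edgeR adjusted p = 8.74e-05), and *BTG2* -1.0 and 1.15 (difference -2.14 ± 0.19). *TXNIP* fell with NACET and had a log2 value of 0.03 with H2O2 (difference -1.25, edgeR adjusted p = 0.0357).

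Cytosolic aminoacyl-tRNA synthetases were lower under NACET than under H2O2 in 9 of 23 members, the integrated stress response in 7 of 21 and amino acid import and synthesis in 6 of 23, with 1 higher in the latter. *CTH* stood at log2 0.99 with NACET and 3.57 with H2O2 (difference -2.57 ± 0.24, edgeR adjusted p = 0.00282), and the glycine carrier *SLC6A9*, not called with NACET, 1.26 and 3.93 (difference -2.66). Hypoxia-inducible genes were higher under NACET in 18 of 29 members and lower in none, and glycolytic genes in 8 of 23. *PFKFB4*, a regulator of glycolysis, had 0.09 with NACET and -3.13 with H2O2 (difference 3.23 ± 0.17, edgeR adjusted p = 0.000480), and so fell with H2O2. Further large differences upward were in *IL8* (3.17), *ANGPTL4* (2.97), *RIMKLA*, a ligase of N-acetylaspartylglutamate (2.97), and *FAM115C*, now *TCAF2* (2.49). Downward, besides *CDKN1A*, *SLC6A9* and *CTH*, they were in *KLHDC7A* (-2.48) and *FLJ41484* (-2.26). DNA replication genes were higher under NACET in 13 of 42 members and lower in none.

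Whether the change with NACET differed between control and NRF2 ΔC cells was tested as an interaction over 12 samples. Of 14002 genes 9 passed an adjusted p-value under 0.05 (0.0643%, edgeR), all with a larger rise in control cells, and with the replicate number within each line as a block 126 (0.9%), of which 107 had the larger value in control cells. Without the block no gene passed in the other direction, where 78 had an unadjusted p under 0.05 and DESeq2 called 0, and with it 19 did. *TRIM16L* changed by log2 3.04 in control cells, against 0.09 in NRF2 ΔC cells (difference 2.95 ± 0.28, edgeR adjusted p = 0.00300), and *TXNRD1* 1.61 and 0.21 (difference 1.39 ± 0.14, edgeR adjusted p = 0.00377). These 2 passed whichever of the 12 samples was left out, and the genes named next in at most 4 of the 12 fits. *AKR1C3* had 1.61 and -0.77, *TRIM16* 2.42 and 0.54, *PTGR1* 1.34 and 0.08, *SLC6A6* 1.81 and 0.38, *FTL* 1.05 and -0.05, and *SLC48A1* 1.26 and 0.20. *SLC7A11*, with 2.67 and 0.77, passed with the block and not without it (edgeR adjusted p = 4.13e-06 and 0.186). *GCLM*, *NQO1* and *HMOX1* did not pass without the block either, which does not show equal changes.

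Several genes that fell in control cells had negative values in NRF2 ΔC cells too. *ALDH1A3* had a log2 value of -1.45 in control cells and of -1.62 in the clone (difference 0.17 ± 0.22), *TXNIP* -1.23 and -1.22 (difference -0.01 ± 0.51), *CDKN1A* -0.95 and -0.69 (difference -0.26 ± 0.29), *TEF* -0.95 and -1.10, and *SEMA3E* -1.57 and -1.99. *NAV3* also had values of 2.58 and 2.26, and *ATF4* of 0.65 and 0.81. None of these 7 differences passed (edgeR adjusted p = 1 for *ALDH1A3*), which does not show equal changes. In this edgeR interaction test 1.63% of all genes had an unadjusted p under 0.05, and 9.18% with the block. *COL16A1* had values of opposite sign, -0.77 and 0.39, and its difference of -1.16 ± 0.37 did not pass. With the block the fall of *NEAT1* and that of *DIO2* were smaller in control than in NRF2 ΔC cells, at -0.86 against -1.54 (edgeR adjusted p = 0.00377) and -0.72 against -1.43 (edgeR adjusted p = 0.000326), which did not pass without it (edgeR adjusted p = 1 and 1).

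**Figure D5:**
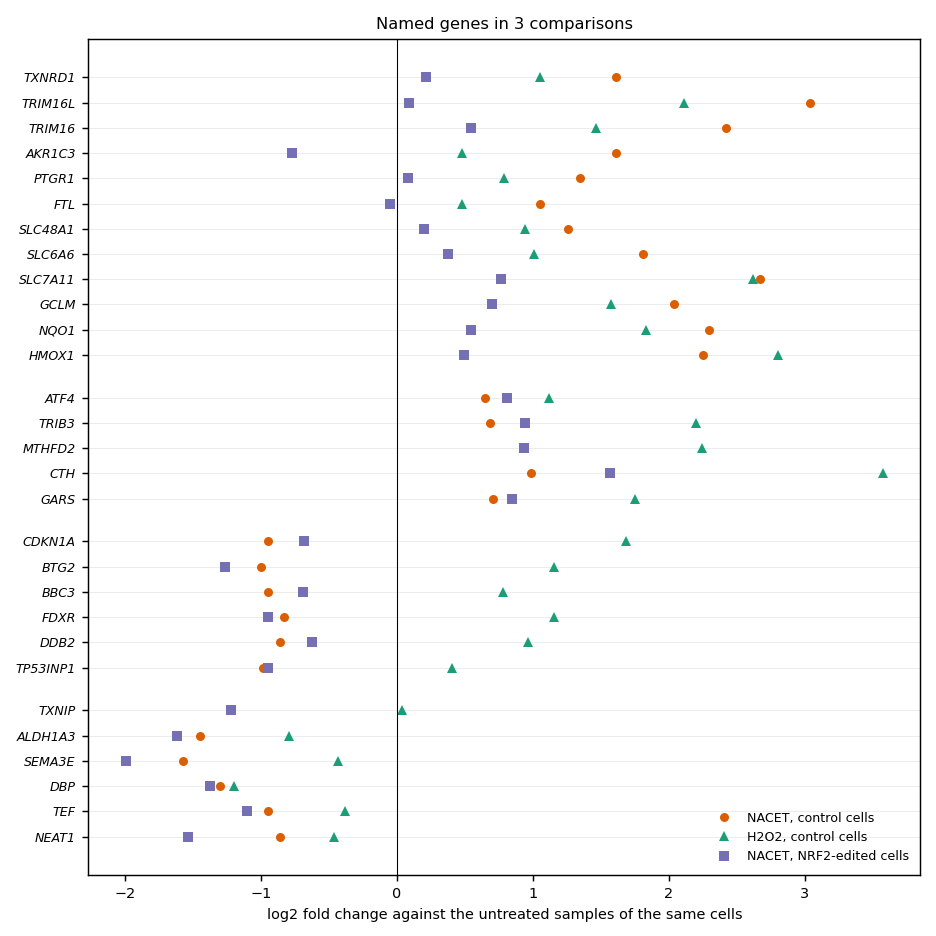
Log2 fold change (horizontal axis) of named genes with NACET in control cells (orange circles), with H2O2 in control cells (green triangles) and with NACET in NRF2 ΔC cells (purple squares), each against the untreated samples of the same cells. The first 2 share the untreated control samples. In the upper block the purple squares lie left of the orange circles. Of its genes, *SLC7A11*, *GCLM*, *NQO1* and *HMOX1* did not pass the interaction test without the replicate block. For *CDKN1A* and the other p53 targets the green triangles lie right of 0 and the orange circles left of it.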

How the data were processed

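RNA was sequenced from poly(A)-selected, single-end libraries of 18 ARPE-19 samples. Per the labels and the study's methods, the authors aligned reads to hg19 with TopHat2 2.1.0, counted exonic reads per gene symbol with HTSeq 0.11.2 without regard to strand, removed rRNA genes and deposited the read counts, with 23411 symbols and 5 summary lines per file. The annotation used is not given in the sources used here. The summary lines, which name no gene, were left out, and 73.0% to 74.2% of each file's total in the 6 samples was on genes.

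Counts of the 3 control NACET and 3 control untreated samples were tested with edgeR 4.0.16 in R 4.3.3 (TMM, filterByExpr, quasi-likelihood, Benjamini-Hochberg adjustment), and a call needed an adjusted p below 0.05 and a log2 change of 0.6 or more either way. DESeq2 1.42.0, other scaling, filters and fold limits, all 18 samples in 1 fit, a replicate block and leaving out each sample were alternatives. Deviations from the group means of NACET and untreated samples of equal number had correlations of 0.783, 0.686 and 0.879 over 9844 genes, so the numbers pair the samples, and values with the block stand beside calls that they change and counts that they move by over 1.5 times. The labels do not say what a number shares. No 2 replicates agreed within sampling noise. The interaction was tested with no fold limit. The scripts were tested on simulated data.

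The members and lists were chosen with earlier results of these data known. Named were *NFE2L2* and *KEAP1*, the top 15 called genes by rise and by fall at a mean of 1 CPM or more with no overlap, the 8 most abundant called each way, up to 5 called members of each list by p-value (up to 2 abundant ones where fewer than 2 were called), and in the other comparisons the named genes that pass and the 5 largest differences each way. *TP53INP1*, *CBR1*, *NQO2*, *CRY1*, *CDC6* and *E2F1* fall outside this rule and were named after their values were seen. A few called genes, 1 of them among the 9 of the interaction, are not reported here.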

Additional observations from a re-analysis of the deposited data

Results flagged for a closer look

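The following differences between the cell lines were picked out because the change with NACET in control cells differed from that in NRF2 ΔC cells by a test of the difference itself (edgeR quasi-likelihood interaction over 12 samples, Benjamini-Hochberg adjustment over 14002 genes). On the log2 scale, the change in control cells exceeded that in NRF2 ΔC cells by 2.95 for *TRIM16L*, 2.38 for *AKR1C3*, 1.88 for *TRIM16*, 1.43 for *SLC6A6*, 1.39 for *TXNRD1*, 1.26 for *PTGR1*, 1.10 for *FTL* and 1.06 for *SLC48A1*. The adjusted p-values were 0.0030 for *TRIM16L*, 0.0038 for *TXNRD1*, 0.0239 for *PTGR1* and 0.0464 for each of the others. With 1 of the 12 samples left out, *TRIM16L* and *TXNRD1* passed in 12 of 12 fits, *PTGR1* in 4, *AKR1C3*, *SLC6A6* and *TRIM16* in 1 each, and *FTL* and *SLC48A1* in 0, with all differences of the same sign. Their ranges over these fits were 2.80 to 3.27 for *TRIM16L*, 1.33 to 1.46 for *TXNRD1* and 2.02 to 2.58 for *AKR1C3*. NRF2 ΔC was 1 clone, so the edit and the clone cannot be told apart.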

How the results depend on the processing

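All 376 calls kept their direction in the edgeR and DESeq2 alternatives run, except that 370 were tested under the filter of 1 CPM. DESeq2 gave 326 up and 282 down, the replicate block 500 and 526 with all 376 among them, and a fold limit of 1 gave 78 and 78. Leaving out 1 sample, without the block, gave 21 to 179 up and 9 to 158 down. RLE scaling, other filters, no fold limit and a fit of all 18 samples stayed within 1.5 times of the 191 and 185. Genes higher and lower under NACET than under H2O2 became 660 and 359 with the block, and 91 to 387 and 68 to 201 with 1 sample left out. The lowest counts came without NACET replicate 2 (91 and 73) and without H2O2 replicate 2 (106 and 68). The 9 interaction genes became 27 with DESeq2, 3 with RLE scaling, 126 with the block and 2 to 8 with 1 sample left out. *FAM115C*, not called with NACET at -0.15, ranged from -0.28 to 0.11 with 1 sample left out, and was at 0.11 without untreated replicate 2. The causes were not tested. Depth limits genes near 1 CPM, where groups differ by few reads.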
